A study of Mus musculus with 8 samples.

Results

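MicroRNA genes are described here as they read on whole-transcript arrays of regulatory T cells (Treg cells, which restrain other immune cells) from pregnant mice with and without interleukin 10 (IL-10), an anti-inflammatory cytokine. The members are the genes whose probe set carried a single symbol of a microRNA gene (Mir with a number, or Mirlet), with the probe set of the highest mean kept for each gene. There were 175 such genes among 6986 genes tested, from 180 probe sets, and they lay on chromosomes 1 and 10 to 15. Below, all genes means these 6986, which are not the whole genome. The chromosomes named describe the members analysed and not microRNA genes at large. A further 46 probe sets with a microRNA symbol carried several symbols, and no gene was named from them. The host transcript Mir17hg was among these, so it is not a member.

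The 4 arrays labelled IL10+/+ held cells of C57BL/6 mice, and the 4 arrays labelled IL10-/- held cells of mutants that had been bred back through the same C57BL/6 colony. All females were pregnant, at day 9.5 after mating, and CD4+CD25+ cells were sorted from the uterine draining (para-aortic) nodes. Every array was a pool of 2 to 4 mice, so the spread between arrays is that between pools. The mutants alone were given oxytetracycline, at 2 mg/ml in the drinking water, against colitis, and effects of genotype and of antibiotic cannot be told apart. The sort used no intracellular marker, and activated conventional CD4+ cells can also carry CD25. Balb/c males are listed among the animals, but the labels do not state the mating.

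A microRNA gene is transcribed as a long primary transcript, often shared with neighbouring microRNA genes or with a host gene. Drosha cuts the hairpin out of it in the nucleus, Dicer1 cuts the hairpin to a duplex in the cytoplasm, and an Argonaute protein keeps a single strand, the mature microRNA. Bases 2 to 8 of the mature strand, the seed, pair with sites in target mRNAs, which are then repressed. Treg cells need this pathway: loss of Dicer1 or Drosha in them is known to cause autoimmunity in mice, and miR-146a and the miR-17 cluster are known regulators of their function. The arrays were hybridised with amplified total RNA and carry probes against the gene, so a value does not tell the mature microRNA from its hairpin, primary transcript or host transcript.

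Mature sequences were taken from the RefSeq table for GRCm38.p6, where 159 members had at least 1. These 274 sequences held 246 distinct seeds, of which 20 were shared by 2 or more members. A selection of those the results turn on follows, written 5′ to 3′ with the seed in capitals.

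The members of the miR-17 cluster on chromosome 14 are shown first, since Mir17 and Mir20a share a seed while their neighbours Mir18 and Mir19a do not.
mmu-miR-17-5p: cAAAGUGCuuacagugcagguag
mmu-miR-20a-5p: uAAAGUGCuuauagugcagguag
mmu-miR-18a-5p: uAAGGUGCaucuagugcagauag
mmu-miR-19a-3p: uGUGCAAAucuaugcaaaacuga

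Mir15a and Mir16-1 are neighbours on the same chromosome and share a seed, and both mature strands of Mir142 and the 5p strand of Mir146, named miR-146a in the table, are given as the best known microRNAs of lymphocytes among the members.
mmu-miR-15a-5p: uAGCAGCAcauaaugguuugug
mmu-miR-16-5p: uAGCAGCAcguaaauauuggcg
mmu-miR-142a-5p: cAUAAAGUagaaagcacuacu
mmu-miR-142a-3p: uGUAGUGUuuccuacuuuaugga
mmu-miR-146a-5p: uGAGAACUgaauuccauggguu

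The let-7 genes of chromosome 13 and the sequenced miR-30 genes show families in which all members carry 1 seed.
mmu-let-7a-5p: uGAGGUAGuagguuguauaguu
mmu-let-7d-5p: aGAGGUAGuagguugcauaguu
mmu-let-7f-5p: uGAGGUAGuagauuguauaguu
mmu-miR-30a-5p: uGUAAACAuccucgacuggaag
mmu-miR-30c-5p: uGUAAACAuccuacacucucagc

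The last set holds some of the members at an unadjusted p under 0.05 between the groups, and Mir3473b for comparison with Mir3473c.
mmu-miR-3473c: uCUCUCCAgcccccauaauaag
mmu-miR-3473b: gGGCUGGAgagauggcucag
mmu-miR-7a-5p: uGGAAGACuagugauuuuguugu
mmu-miR-215-5p: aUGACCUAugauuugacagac
mmu-miR-203-3p: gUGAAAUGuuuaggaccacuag
mmu-miR-541-5p: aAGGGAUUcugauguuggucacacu
The seeds of this last set differ from one another. Bases 1 to 12 of miR-3473b were the reverse complement of bases 1 to 12 of miR-3473c.

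The arrays were checked first. Il10, the disrupted gene, read 9.35, 8.65, 9.42 and 9.25 on the log2 scale in the arrays labelled IL10-/- and 8.27, 8.51, 8.14 and 7.50 in the arrays labelled IL10+/+. It was thus not lower in the mutant arrays (difference 1.06, standard error 0.22, adjusted p = 0.405 by limma), and since the labels do not say which part of the gene was disrupted or where its probes lie, this probe set does not check the genotype labels. Directions below therefore rest on the labels. The interquartile range of the values was 2.15 and 2.17 log2 units in IL10-/- replicate 2 and IL10+/+ replicate 4 and 2.32 to 2.58 in the other 6 arrays, and these 2 arrays are also given left out below. The 5 measured Treg markers and 4 T cell markers were above the array median in all 8 arrays, while Foxp3, Il2ra, Cd4 and Cd3e were not analysed here. The mean level of the 5 measured B cell markers of 8 listed ran from 7.06 to 7.39 in IL10-/- arrays and from 6.94 to 7.13 in IL10+/+ arrays. That of 4 of 7 macrophage and monocyte markers ran from 7.01 to 7.69 and from 7.26 to 7.36. For 2 of 4 neutrophil markers the ranges were 5.69 to 6.02 and 5.90 to 6.23, for 2 of 5 red cell and platelet markers 6.97 to 7.24 and 6.84 to 7.19, and for 4 stroma markers 7.08 to 7.26 and 7.20 to 7.31. No measured marker was at 0, a value this log2 scale does not reach, and the part of these cells in the results was not tested.

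Most microRNA genes read low. Their median level over the 8 arrays was 5.60 on the log2 scale, against 7.04 for all genes tested. The array medians lay between 6.97 and 7.12, and 26 of the 175 members (14.9%) were above the array median in all 8 arrays, where 43.1% of all genes were. A further 29 members were above it in 1 to 7 arrays, and 120 (68.6%) were below it in all 8, against 43.2% of all genes. In single arrays 38 to 43 members were above the median. A mean level under 4 was found for 32 members (18.3%) and for 3.26% of all genes. The lowest value of each array was 2.07 to 2.25. Probe sets differ in how strongly they bind, so a place above the median is not an abundance, and an order of levels among members is an order of probe sets and not of transcripts.

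**Figure D1:**
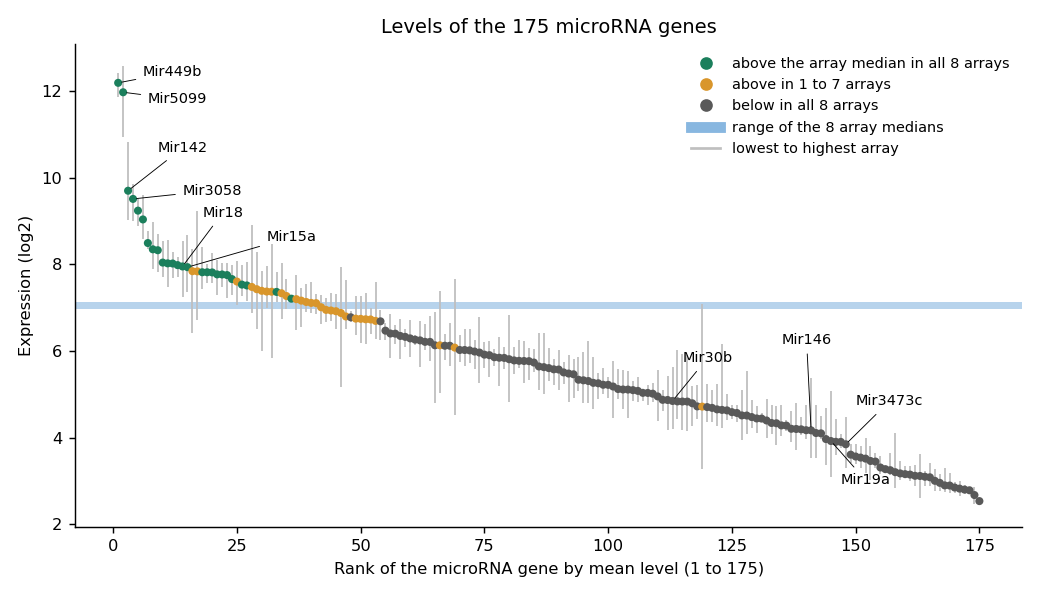
Mean level (log2, y axis) of each of the 175 microRNA genes, ranked from highest to lowest (x axis), with a line from the lowest to the highest of the 8 arrays. Green points (26 genes) lay above the median of the tested genes in every array, orange points (29) in some arrays and grey points (120) in none. The blue band spans the 8 array medians, 6.97 to 7.12.

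Only 6 members had a mean of 9 or more. Mir449b read 12.20, 12.15, 11.86 and 12.13 in the IL10-/- arrays and 12.20, 12.27, 12.30 and 12.41 in the IL10+/+ arrays, with a mean of 12.19 over all 8. Mir5099 read 11.95, 10.94, 12.27 and 12.58 against 12.19, 11.90, 12.28 and 11.68. The arrays of both groups interleaved for Mir5099, with IL10-/- replicate 2 the lowest. The other 4 were Mir142 (mean 9.70), Mir3058 (9.51), Mir673 (9.24) and Mir1898 (9.04). A mean from 8 to 9 was found for Mir5135 (8.49), Mir5104 (8.35), Mir378b (8.32), Mir1190 (8.04), Mir329 (8.02) and Mir874 (8.02).

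The remaining 14 genes above the median in every array had means from 7.21 to 7.98. They were Mir665, Mir18, Mir15a, Mir680-3, Mir763, Mir194-1, Mir345, Mir341, Mir666, Mir1931, Mir1932, Mir540, Mir667 and Mir212. By position, 12 of the 26 lay on chromosome 12, where 58 members lie, 4 each on chromosomes 10 and 11, 2 each on chromosomes 13 and 14 and 1 each on chromosomes 1 and 15. Among the 26, Mir142, Mir18, Mir15a and Mir212 were the loci on the list of T cell microRNA genes.

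The level read by a probe set varied with base composition, which is given as a description of the readings. For the 157 members with a hairpin sequence in RefSeq, the percentage of G and C in the hairpin and the mean level had a Spearman correlation of 0.40 across genes, and the same value was found within the IL10-/- arrays and within the IL10+/+ arrays. The 40 hairpins of lowest G and C (43.4% or less) had a median level of 4.36, and 4 of these genes were above the array median in all 8 arrays. The 40 of highest G and C (54.1% or more) had a median of 6.19, and 12 of them were above it. These points share arrays and probe chemistry and are not independent. Between base composition and the difference between the groups the Spearman correlation was -0.01.

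**Figure D2:**
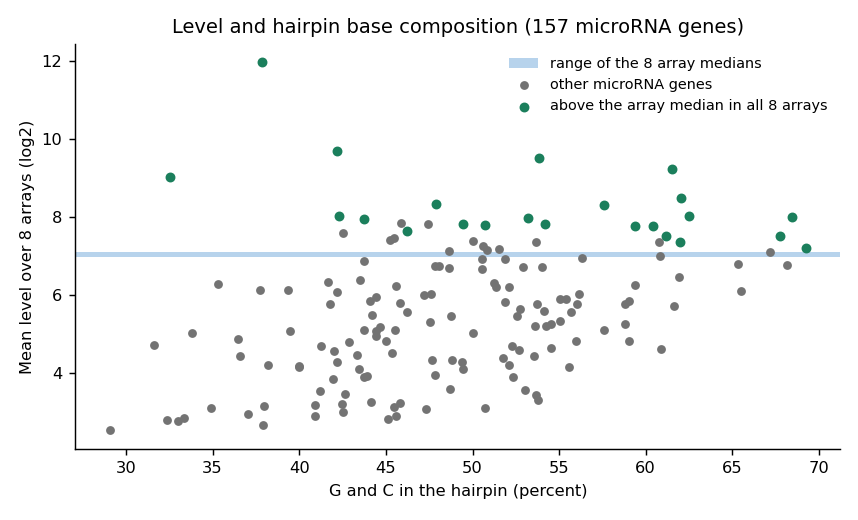
Mean level over 8 arrays (log2, y axis) against the percentage of G and C in the hairpin (x axis) for the 157 microRNA genes with a hairpin sequence. Green points are genes above the array median in all 8 arrays, and the blue band spans the array medians. Genes of higher G and C content had higher levels (Spearman correlation 0.40).

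No microRNA gene differed between IL10-/- and IL10+/+ arrays after adjustment. With limma and Benjamini-Hochberg adjustment over all 6986 genes, 0 of 175 members had an adjusted p under 0.05, and the lowest was 0.406, for Mir3473c. Over all genes 2 passed (0.0286%), both higher in the IL10-/- arrays: Ctse, which encodes the protease cathepsin E, and Efcab2. At an unadjusted p under 0.05 there were 7 members (4.0%), against 4.78% of all genes, so the members' share was near that of all genes. Of these, 3 were higher in IL10-/- arrays (Mir3473c, Mir30b and Mir19a, where 3.19% of all genes were) and 4 were lower (Mir7-1, Mir215, Mir203 and Mir541, where 1.59% of all genes were).

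Differences were positive for 81 members and negative for 94. Their median was -0.02 log2 units, against 0.00 for all genes, and they ran from -0.99 to 0.78. The median residual standard deviation within groups was 0.25 log2 units for the members and 0.18 for all genes. The groups did not overlap for 6 members, or 3.43%, against 2.92% of all genes. Mir3473c, Mir30b and Mir135b were higher in all 4 IL10-/- arrays (1.83% of all genes were), and Mir203, Mir449b and Mir541 were lower (1.09% were). No overlap between 4 and 4 arrays fixes the exact two-sided permutation p over arrays at 0.0286, the smallest possible. For these 6 members, picked by that property, it is therefore no further test. In bulk samples such as these, fewer cells of a type and less RNA per cell cannot be told apart.

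**Figure D3:**
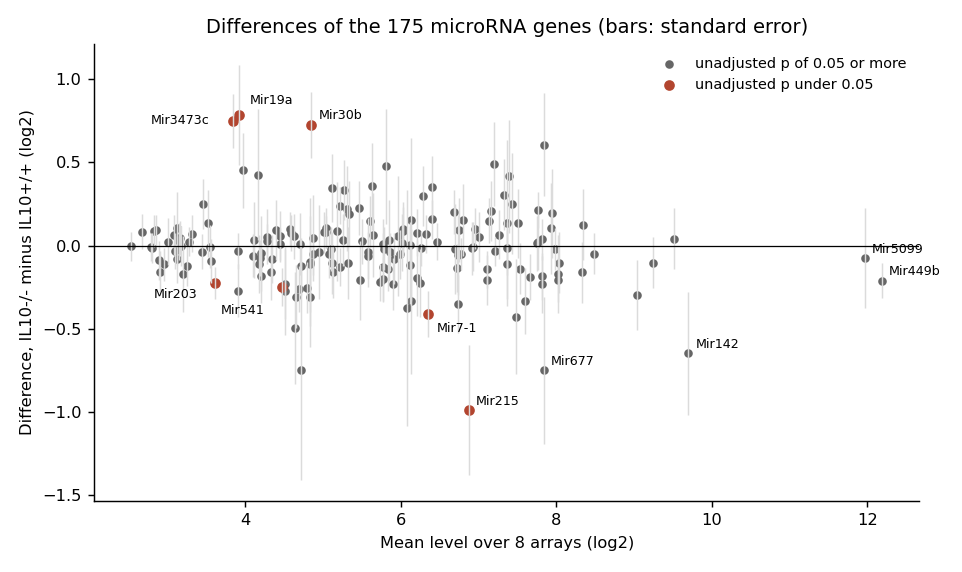
Difference between groups (IL10-/- minus IL10+/+, log2, y axis) against mean level over 8 arrays (log2, x axis) for the 175 microRNA genes, with standard errors from limma as bars. Red points are the 7 genes at an unadjusted p under 0.05, none of which passed adjustment. Mir677, labelled for its difference of -0.75, was chosen after its values were seen.

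Among the genes with higher readings in the IL10-/- arrays, Mir3473c lies on chromosome 1 inside Traf5, which encodes an adaptor of tumour necrosis factor receptors. It read 4.43, 4.48, 3.71 and 4.26 in IL10-/- arrays and 3.53, 3.31, 3.60 and 3.45 in IL10+/+ arrays, a difference of 0.75 (standard error 0.16, limma unadjusted p = 0.00084, adjusted p = 0.406). The groups did not overlap, and IL10-/- replicate 3 lay only just above the highest IL10+/+ array. Without that array the difference was 0.92 and the adjusted p was 0.0399, the only fit of those tried in which a member passed. All values were well below the array median. Traf5 itself differed by -0.16. Mir3473b, whose first bases pair with those of Mir3473c, differed by 0.06.

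Mir30b, on chromosome 15, belongs to the miR-30 family, which is made in many tissues. It read 5.39, 5.64, 4.88 and 4.93 in IL10-/- arrays and 4.19, 4.65, 4.26 and 4.83 in IL10+/+ arrays, a difference of 0.73 (standard error 0.20, limma unadjusted p = 0.0038, adjusted p = 0.650). The lowest IL10-/- array was just above the highest IL10+/+ array. Its neighbour Mir30d read 7.21, 8.02, 7.32 and 7.38 against 6.73, 7.08, 7.30 and 7.62, a difference of 0.30 with overlapping groups. The family members on chromosome 1 had differences of the other sign, -0.18 for Mir30a and -0.25 for Mir30c-2, and neither passed the test.

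Mir135b, also on chromosome 1 and singled out after its values were seen, differed by 0.24 (standard error 0.11, limma adjusted p = 0.999). It lies inside Lemd1, which differed by -0.03. Of the 22 members on chromosome 1, 2 (9.09%) had an unadjusted p under 0.05 (Mir3473c and Mir215), against 4.78% of all genes, and 2 had groups that did not overlap (Mir3473c and Mir135b), against 2.92%. Counts of 2 are too small to read as a result about this chromosome. The share at an unadjusted p under 0.05 was 6.67% of members on chromosome 14, 5.88% on 13, 5.56% on 15, 3.45% on 12 and 0% on 10 and 11. Il10, Ctse and Efcab2 lie on chromosome 1 as well, and a link with them was not tested.

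**Figure D4:**
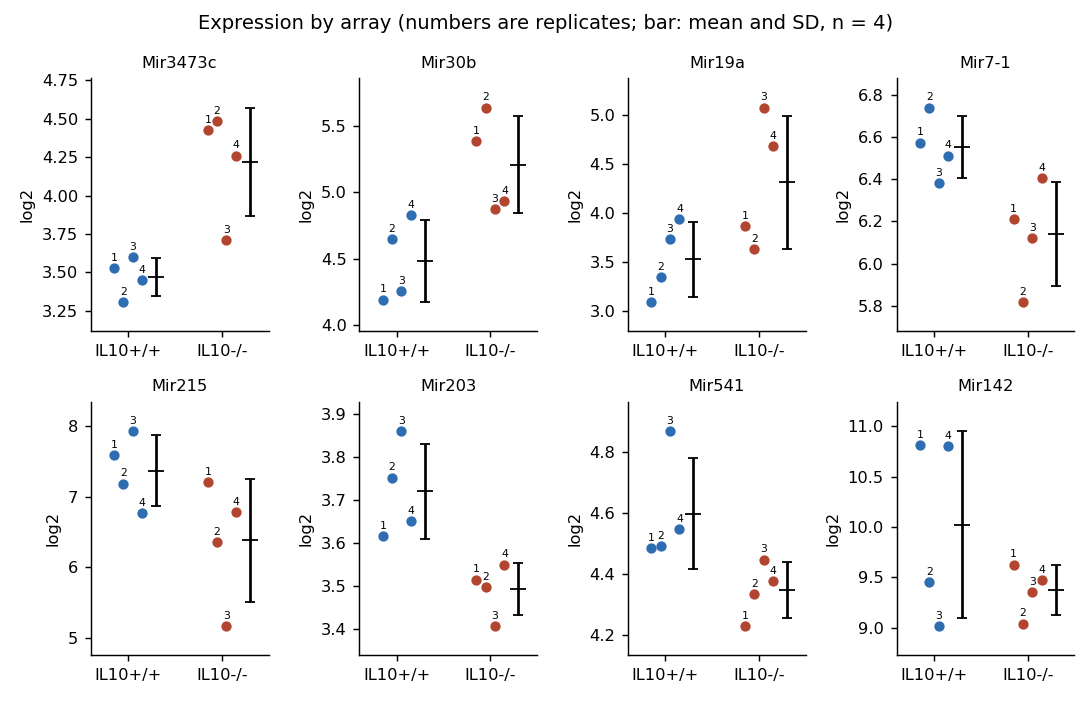
Expression by array (log2, y axis; each panel has its own scale) for the 7 microRNA genes at an unadjusted p under 0.05 and for Mir142. Blue points are IL10+/+ arrays and red points IL10-/- arrays, numbered by replicate, and the bar gives the mean and SD (n = 4). The groups do not overlap for Mir3473c, Mir30b, Mir203 and Mir541.

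Among the genes with lower readings, Mir7-1 lies inside Hnrnpk, an abundant RNA-binding protein gene on chromosome 13, and its microRNA is best known from neurons and pancreatic islets. It read 6.21, 5.82, 6.12 and 6.41 in IL10-/- arrays and 6.57, 6.74, 6.38 and 6.51 in IL10+/+ arrays, a difference of -0.41 (standard error 0.14, limma unadjusted p = 0.012, adjusted p = 0.777). The groups overlapped by IL10-/- replicate 4, which was just above the lowest IL10+/+ array. Hnrnpk, at a mean of 12.58, differed by 0.02.

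Mir215, a microRNA of intestinal and kidney epithelium that responds to p53, had the most negative difference of all members. Its readings were 7.21, 6.36, 5.17 and 6.79 in IL10-/- arrays and 7.60, 7.19, 7.93 and 6.77 in IL10+/+ arrays, a difference of -0.99 (standard error 0.39, limma unadjusted p = 0.028, adjusted p = 0.888). IL10-/- replicate 3 was far below the rest, and without it the difference was -0.59. Its neighbour Mir194-1, which shares the locus, differed by -0.19. Iars2, which lies on the opposite strand and encodes the mitochondrial isoleucyl-tRNA synthetase, differed by -0.36.

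Mir203, known from the epidermis, read 3.51, 3.50, 3.41 and 3.55 in IL10-/- arrays and 3.62, 3.75, 3.86 and 3.65 in IL10+/+ arrays, a difference of -0.23 (standard error 0.10, limma adjusted p = 0.999). Mir541 read 4.23, 4.34, 4.45 and 4.38 against 4.49, 4.49, 4.87 and 4.55, a difference of -0.25 (standard error 0.11, limma adjusted p = 0.999). In both genes every IL10-/- array was below every IL10+/+ array, and both read far below the array median. Mir449b, the probe set of highest mean among the members, also had no overlap, with a difference of -0.21 (standard error 0.11, limma unadjusted p = 0.071). Its groups were only just apart, with IL10-/- replicate 1 at 12.1975 and IL10+/+ replicate 1 at 12.2045. Cdc20b, the gene that contains Mir449b, was below the median in all 8 arrays and differed by 0.20, as did Mir449a.

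Of 64 listed names of microRNA and host genes with known roles in T cells, aliases included, 20 were measured with a single symbol. They had a median difference of 0.15, with 13 positive and 7 negative, and 2 of them (Mir30b and Mir19a, 10%) had an unadjusted p under 0.05, where 4.78% of all genes did. None passed adjustment. In all 8 arrays 4 (20%) were above the array median and 11 (55.0%) below it, against 43.1% and 43.2% of all genes. Mir155 and Mir21a, among the best known in activated T cells, were not analysed here.

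Mir17, Mir18, Mir19a and Mir20a come from 1 primary transcript on chromosome 14, known for promoting lymphocyte growth and survival. Mir17 read 7.30, 7.18, 7.44 and 8.29 in IL10-/- arrays and 7.14, 7.78, 7.77 and 6.52 in IL10+/+ arrays. Mir18 read 7.82, 7.65, 8.16 and 8.55 against 7.56, 8.16, 8.44 and 7.25. Both were highest in IL10-/- replicate 4 and lowest in IL10+/+ replicate 4, with overlapping groups and differences of 0.25 and 0.19. Mir20a read 5.99, 5.84, 5.52 and 6.83 against 5.24, 6.47, 5.75 and 4.82, a difference of 0.48, again with the highest and lowest readings in those same arrays. Mir19a read 3.87, 3.63, 5.07 and 4.68 against 3.09, 3.35, 3.73 and 3.94. Its difference of 0.78 was the most positive of all members (standard error 0.30, limma unadjusted p = 0.025, adjusted p = 0.873), although the lower IL10-/- arrays lay within the IL10+/+ range. Mir19a read far below the array median in every array, with a mean of 3.92.

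The arrays in which these neighbours were high were partly the same. Mir17 and Mir18 had a Pearson correlation of 0.95 over the 8 arrays (exact permutation p = 0.000198, adjusted p = 0.0544 over 274 pairs of members whose starts lie within 10 kb) and a Spearman correlation of 0.98 (exact permutation p = 0.000397, adjusted p = 0.0453). Pearson's r was 0.92 without the 2 most extreme arrays and 0.95 after the group means were removed. Here and below, the 2 most extreme arrays are those farthest from the median of the first-named gene of a pair. The extremes of the second gene were not left out in turn. Mir17 and Mir20a had r of 0.89 and rho of 0.81 (exact permutation p = 0.00417 and 0.0218, adjusted 0.285 and 0.459), and r fell to 0.58 without the 2 most extreme arrays. Mir19a did not follow Mir17 (r = 0.29 and rho = 0.21, exact permutation p = 0.483 and 0.619, adjusted p = 0.788 and 0.874). The low readings of Mir19a limit what this says about its transcript.

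**Figure D5:**
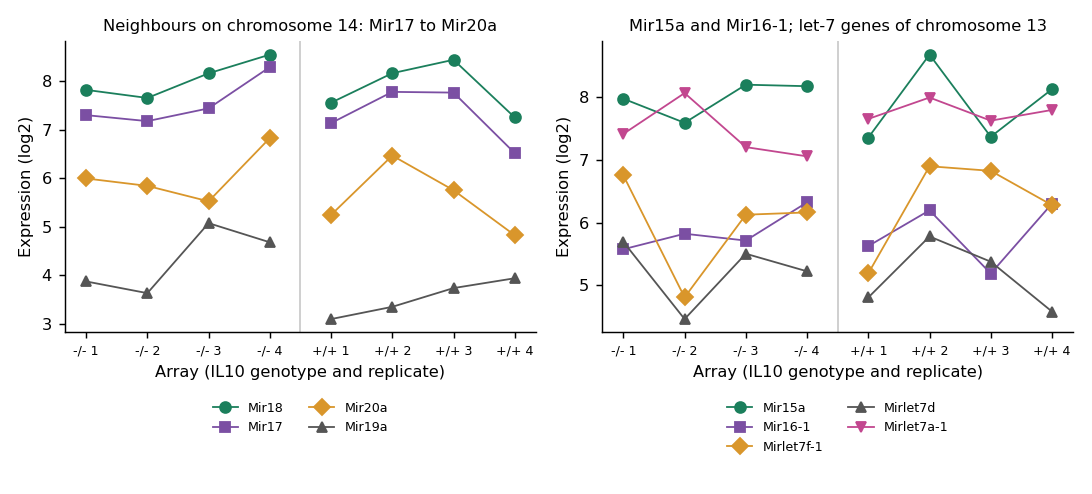
Expression by array (log2, y axis) of neighbouring microRNA genes, with IL10-/- arrays left and IL10+/+ arrays right of the grey line. Replicates have no order, and lines only join the points of 1 gene. Mir17 and Mir18 moved together over the 8 arrays (r = 0.95), while Mir19a, which read far below the array median, did not follow Mir17 (r = 0.29).

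Over all 274 such pairs, 30 had an exact permutation p under 0.05 for Pearson's r and 0 had an adjusted p under 0.05. These 30 held correlations of both signs, and many pairs share a gene. The matching count for pairs on different chromosomes was not taken. By Spearman's rho 3 pairs had an adjusted p of 0.0453: Mir17 with Mir18, and, in the Dlk1-Dio3 cluster, Mir376c with Mir654 (rho = 0.98, r = 0.77, exact permutation p = 0.000397 and 0.0273, r = 0.40 without the 2 most extreme arrays) and Mir299a with Mir494 (rho = -0.97, r = -0.86, exact permutation p = 0.000496 and 0.00303, r = -0.92 without them). The rank order of Mir376c rested on readings of 2.45 to 2.60, near the bottom of the scale. Mir299a had 2 probe sets, and its pair used the 1 of higher mean. In IL10+/+ replicate 3 that probe set had its highest reading, 5.10, while the other read 3.33. The pair was not tested with the other probe set. The 23 pairs outside the Dlk1-Dio3 cluster had a median r of 0.29, with 7 above 0.7, and the 251 pairs within that cluster a median of 0.11, with 20 above 0.7. The 12391 pairs on different chromosomes had a median of 0.03.

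Mir142, on chromosome 11, is made in blood cells of all lineages. It read 9.63, 9.04, 9.36 and 9.47 in IL10-/- arrays and 10.81, 9.45, 9.02 and 10.80 in IL10+/+ arrays, above the array median throughout. IL10+/+ replicates 1 and 4 were more than a log2 unit above the other 6 arrays, IL10+/+ replicate 2 lay among the IL10-/- arrays, and IL10+/+ replicate 3 was just below them. The difference was -0.65 (standard error 0.37, limma adjusted p = 0.999). It was -0.39 without either of these high arrays in turn, and -0.98 without IL10+/+ replicate 3.

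Mir146 encodes miR-146a, which restrains signalling to NF-κB. It read 5.38, 3.58, 3.69 and 4.87 in IL10-/- arrays and 3.52, 4.57, 3.52 and 4.20 in IL10+/+ arrays. Each group had high and low arrays, and the difference of 0.43 was close to its standard error of 0.39. It ran from 0.091 to 0.69 when 1 array was left out. Mir181a-1, whose microRNA tunes the sensitivity of the T cell receptor, had a mean of 3.00 and a difference of 0.02. Its neighbour Mir181b-1 differed by -0.31, and IL10+/+ replicate 4 had its highest reading, 6.02.

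Mir15a and Mir16-1, which restrain Bcl2 and the cell cycle, lie inside the non-coding gene Dleu2. Mir15a read 7.98, 7.59, 8.20 and 8.18 in IL10-/- arrays and 7.36, 8.68, 7.37 and 8.13 in IL10+/+ arrays. Mir16-1 read 5.58, 5.82, 5.71 and 6.32 against 5.63, 6.20, 5.19 and 6.30. The groups overlapped for both, with differences of 0.10 and 0.03, and Dleu2 differed by 0.23. Their correlation over arrays was 0.71, with rho of 0.60 (exact permutation p = 0.0545 and 0.132, adjusted p = 0.462 and 0.633), and r fell to 0.46 without the 2 most extreme arrays. The 4 members with their seed, Mir15a, Mir16-1, Mir195a and Mir497, had a median difference of 0.03.

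No other listed T cell gene passed adjustment. Mir342, inside Evl, differed by 0.49, with readings of 7.76, 7.34, 6.97 and 7.68 against 6.48, 7.69, 6.69 and 6.95. IL10+/+ replicate 2 lay among the IL10-/- arrays, and Evl differed by -0.20. Mir128-1, inside R3hdm1, differed by 0.42, and by 0.02 without IL10+/+ replicate 3, which read 5.99 where the other 7 arrays read 7.11 to 7.84. Mir26b, inside Ctdsp1, a phosphatase gene, differed by 0.33 (Ctdsp1 by 0.03), and Mir23b, inside the aminopeptidase gene Aopep, by -0.02. Mir132 and Mir212, which CREB induces in many cells and which share the seed AACAGUC, differed by -0.16 and -0.03.

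The let-7 genes are marks of differentiated cells. The list holds the 6 that were members, so it does not show how much of the family was measured. None was above the array median in all 8 arrays, where 43.1% of all genes were. Of the 6, 5 (83.3%) were below it in all 8, against 68.6% of all members and 43.2% of all genes. Mirlet7a-1 read 7.41, 8.07, 7.20 and 7.06 in IL10-/- arrays and 7.65, 7.99, 7.63 and 7.80 in IL10+/+ arrays, a difference of -0.33. Mirlet7f-1 read 6.75, 4.81, 6.13 and 6.16 against 5.19, 6.90, 6.83 and 6.28, a difference of -0.34. The low arrays were IL10-/- replicate 2 and IL10+/+ replicate 1, and the second probe set of Mirlet7f-1 gave -0.17. Differences for the others were 0.08 for Mirlet7d, 0.09 for Mirlet7b, -0.04 for Mirlet7c-2 and 0.15 for Mirlet7i, all with overlapping groups. Pearson's r of Mirlet7d with its neighbour Mirlet7f-1 was 0.88 without the 2 most extreme arrays of Mirlet7d, IL10-/- replicate 2 and IL10+/+ replicate 4. IL10+/+ replicate 1, low for Mirlet7f-1, stayed in. Over all 8 arrays Mirlet7d followed Mirlet7f-1 (r = 0.79 and rho = 0.71, exact permutation p = 0.0202 and 0.0576, adjusted p = 0.432 and 0.574). Mirlet7a-1, in the same cluster, did not (r = -0.23 and rho = -0.05, exact permutation p = 0.577 and 0.935, adjusted p = 0.850 and 1.0).

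The Dlk1-Dio3 region of chromosome 12 is an imprinted domain whose maternal chromosome makes a large cluster of microRNAs, with known activity in embryo, placenta and brain. It held 43 of the 175 members, from 60 listed. Of these, 33 (76.7%) were below the array median in all 8 arrays, against 68.6% of all members and 43.2% of all genes. Above it in all 8 were 7 (16.3%, against 14.9% of all members and 43.1% of all genes): Mir673, Mir329, Mir665, Mir666, Mir341, Mir540 and Mir667. Differences ran from -0.26 to 0.30 with a median of -0.02, 26 negative and 17 positive. Of the 43, 1 (Mir541, 2.33%) had an unadjusted p under 0.05, against 4.78% of all genes. Mir341 had the next smallest p, with readings of 7.85, 8.02, 7.72 and 7.89 against 7.66, 7.48, 7.81 and 7.69 and a difference of 0.21. Its host Rian, a non-coding RNA gene of the domain, was below the array median in all 8 arrays (mean 5.37) and differed by -0.16.

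Several cluster members had 2 probe sets. The difference was -0.26 and -0.21 for Mir299a, -0.01 and -0.07 for Mir376a, and -0.14 and -0.27 for Mir409. The probe sets of Mir380 disagreed in sign, at 0.25 and -0.09.

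Of 31 listed names of microRNA genes of other tissues, aliases included, 14 were measured, and their median difference was 0.02. In 10 of them (71.4%, against 68.6% of all members and 43.2% of all genes) all 8 arrays were below the array median, among them Mir144 (mean 2.67) and Mir451a (6.01), which red cell precursors make, the muscle gene Mir206 (3.20), the heart genes Mir208a (4.28) and Mir208b (3.15), the brain gene Mir9-2 (2.85) and the pancreas gene Mir217 (3.16). Mir144 and Mir451a come from 1 transcript, and both were below the median. Mir194-1, of gut and liver, was above it in all 8 arrays, Mir375, of pancreatic islets, and Mir215 in 4 each and the muscle gene Mir133b in 2. Mir218-2, inside Slit3, had a difference of -0.31, and Slit3 one of -0.07.

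Host genes were compared where the annotation places a member inside another gene on the same strand. This held for 67 members, and 53 pairs of a member and a measured host could be formed, with 48 hosts. The host was above the array median in all 8 arrays in 31 pairs, and the microRNA gene was too in 5 of these (16.1%). In the 22 pairs with a host not above it in all 8, 3 microRNA genes were. Differences had the same sign in 28 of 53 pairs, with a Spearman correlation of -0.06 across pairs, and the median correlation of residuals over arrays was 0.05. Mir3058, inside the phosphohydrolase gene Nudt4, differed by 0.04 and Nudt4 by 0.37. Mir1898, inside the RNA-binding protein gene Zfr, differed by -0.30 and Zfr by 0.06. Mir5104 differed by 0.13 and its host Zc3h12d, which encodes an RNase of lymphocytes, by -0.28.

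The remaining genes with high readings had small differences. Mir673 differed by -0.10, Mir5135 by -0.05, Mir378b by -0.16 and Mir1190 by -0.10, each with overlapping groups. When 1 array was left out, the ranges were -0.21 to -0.00074 for Mir673, -0.29 to -0.018 for Mir378b and -0.29 to -0.013 for Mir1190. Msi2, on the strand opposite to Mir378b, differed by 0.07, and Ccdc88c, which spans Mir1190, by -0.14.

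Of 53 listed names of genes that make and use microRNAs, aliases included, 18 were measured. Of these 18, 17 (94.4%) were above the array median in all 8 arrays, where 43.1% of all genes were. Lin28b, which blocks let-7 maturation in early embryos, was the exception. None of the 18 had an unadjusted p under 0.05, where 4.78% of all genes did, and their median difference was -0.02. Tent2, a poly(A) polymerase that extends microRNA ends, read 9.25, 9.18, 9.38 and 9.41 in IL10-/- arrays and 9.20, 9.09, 9.15 and 8.76 in IL10+/+ arrays, a difference of 0.26. Tnrc6c, a scaffold of the silencing complex, read 8.80, 8.39, 8.58 and 8.63 against 8.82, 9.08, 8.80 and 8.65, a difference of -0.24. Both had overlapping groups. Dicer1 and Drosha, named as the enzymes of the pathway, differed by -0.03 and -0.15.

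Of 26 listed genes that published work names as targets of T cell microRNAs, 8 were measured. None passed adjustment, and their median difference was 0.02. The 2 with an unadjusted p under 0.05 (25%, against 4.78% of all genes) were also the 2 with no overlap between groups (25%, against 2.92%). Ifng, the effector cytokine interferon gamma and a reported target of miR-29, read 8.08, 7.84, 7.64 and 7.78 in IL10-/- arrays and 7.37, 7.35, 7.30 and 7.33 in IL10+/+ arrays, a difference of 0.50 with no overlap. Bcl2, a survival gene and target of miR-15a and miR-16, read 10.96, 11.07, 11.01 and 10.90 against 11.33, 11.09, 11.13 and 11.37, a difference of -0.24 with no overlap. Neither passed adjustment by limma, while Mir15a and Mir16-1 differed by 0.10 and 0.03.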

How the data were processed

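The members, gene lists and rules were chosen with earlier results of these data known. The deposited values are log2 expression values of Affymetrix Mouse Gene 2.0 ST arrays. Per the series' design text the authors made them in Partek Genomics Suite with robust multi-array averaging (RMA), with a correction for probe G and C content and the mean over probes, and Affymetrix Expression Console is named per the submitters' processing notes. RNA was amplified with the Ovation PicoSL WTA System V2, per the labels' protocols. No tool version or genome build is given in the sources used here. Of 16378 probe sets, 7358 carried 1 gene symbol in the platform annotation, 456 several and 8564 none, and 7310 of the first were matched to RefSeq. The number of arrays limits the precision.

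Each of 6986 genes was represented by its probe set of highest mean. Groups were compared with limma 3.58.1 in R 4.3.3 (lmFit and eBayes without trend or robust), on all 8 arrays with no covariate and Benjamini-Hochberg adjustment over all genes at 0.05. No filter on low values was used, so all 175 members were tested. Exact permutation tests used all 70 assignments of arrays, or all 40320 pairings for correlations. The test was also run on simulated data, with 100 genes changed by 1 log2 unit and 100 by 2. It recovered 96% and 100% of them, with 14 false calls. Smaller changes, such as those of the members, were not simulated.

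Genes were named by this rule: every measured gene of the T cell list, up to 8 members per direction at an unadjusted p under 0.05, the 10 members of highest mean, all let-7 genes, up to 4 genes at an unadjusted p under 0.05 of every other list (filled to 2 by the next smallest p), members past the adjusted threshold in any fit that left out 1 array, and measured hosts of these. Members above the array median and members whose groups did not overlap were named by those properties. Alternatives were quantile normalization, a common array median, a filter on level, averaging the probe sets of a gene, all probe sets tested, eBayes with trend and robust, array weights, an equal-variance test without moderation, a replicate block, another array median, and leaving out arrays.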

Additional observations from a re-analysis of the deposited data

Results flagged for a closer look

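In the groups of 4 arrays of the named microRNA genes, 84 in all, 3 had an array far from the other 3 by Dixon's test, which chance gives in about 1 in 20 groups. Mir26b read 4.67 in IL10+/+ replicate 2, where the other IL10+/+ arrays read 5.19 to 5.27. Mir128-1 read 7.11 in IL10-/- replicate 1, below the other IL10-/- arrays at 7.70 to 7.81. Mir541 read 4.87 in IL10+/+ replicate 3, above the other IL10+/+ arrays at 4.49 to 4.55.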

How the results depend on the processing

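The number of arrays and the low signal of most microRNA genes limit what can be resolved. No microRNA gene passed the adjusted threshold under any alternative except without IL10-/- replicate 3, where 1 did (0 to 1 over the fits that left out 1 array). Over all genes 2 passed, and 1 passed with a common array median, with all probe sets tested, with array weights, with the equal-variance test without moderation and without both IL10-/- replicate 2 and IL10+/+ replicate 4, and 1 to 4 when 1 array was left out; the cause was not tested. The replicate numbers did not pair the arrays (correlations of deviations 0.05, -0.32, 0.03 and -0.19 for numbers 1 to 4), and with the replicate block 1 gene and 0 microRNA genes passed. The members above the array median numbered 26 to 28 when 1 array was left out, 32 with the median over all probe sets, and 41 where the mean over arrays was set against the mean array median, a rule that asks less of each array. The members' median difference lay between -0.04 and 0.01.

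For the 60 named genes, 1011 of 1056 alternative values kept their direction and 45, in 19 genes, did not. Leaving out 1 array gave ranges of -0.0084 to 0.41 for Mir17, -0.0079 to 0.39 for Mir18, -0.060 to 0.12 for Mir181a-1, -0.50 to 0.030 for Mir181b-1, -0.073 to 0.37 for Mir15a, -0.18 to 0.19 for Mir16-1, -0.15 to 0.28 for Mir23b, -0.29 to 0.26 for Mir5099, -0.12 to 0.16 for Mir3058, -0.11 to 0.040 for Mir5135, -0.068 to 0.27 for Mir5104, -0.055 to 0.20 for Mirlet7b, -0.080 to 0.024 for Mirlet7c-2, -0.10 to 0.34 for Mirlet7d, -0.71 to 0.048 for Mirlet7f-1, -0.15 to 0.053 for Aopep, -0.099 to 0.15 for Ctdsp1 and -0.0091 to 0.049 for Hnrnpk. It gave -0.25 to -0.032 for Mir132. Leaving out both IL10-/- replicate 2 and IL10+/+ replicate 4 gave 0.099 for Mir181b-1, 0.056 for Mir23b, 0.021 for Mir132, 0.15 for Mir5099, -0.087 for Mir5104, 0.042 for Mirlet7f-1, -0.088 for Mirlet7c-2 and 0.053 for Hnrnpk, and the last 2 kept the direction they had with all arrays. With array weights the difference was 0.072 for Mir5099 and -0.023 for Mir5104, and with quantile normalization -0.017 for Mir181a-1. The cause was not tested for any of these.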

Other observations

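The members that varied most over the 8 arrays were mostly outside the genes described above, and they were chosen after their values were seen. Mir3066, inside Nol10, had an SD of 1.25 log2 units, with readings of 5.21, 4.65, 7.62 and 6.08 in IL10-/- arrays and 6.95, 7.66, 5.93 and 4.51 in IL10+/+ arrays. Each group held both high and low arrays, and the difference was -0.37 (standard error 0.71). Mir599 had an SD of 1.21 and was highest in IL10+/+ replicate 1, at 7.09, against 3.27 in IL10+/+ replicate 3. Mir677, inside the ATP synthase gene Atp5b, read 7.80, 7.74, 6.71 and 7.60 in IL10-/- arrays and 9.23, 8.97, 7.16 and 7.49 in IL10+/+ arrays. IL10+/+ replicates 1 and 2 were above all other arrays, and the difference was -0.75 (standard error 0.44, limma adjusted p = 0.999), while Atp5b differed by -0.04.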
